A study of Rattus norvegicus with 6 samples.

Results

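The 10 genes examined encode the core enzymes that remove superoxide and peroxides in liver, together with the small electron carrier that serves many of them. They are the superoxide dismutases Sod1 and Sod2, catalase (Cat), the glutathione peroxidases Gpx1 and Gpx4, the peroxiredoxins Prdx1, Prdx3, Prdx5 and Prdx6, and thioredoxin 1 (Txn1). The genes were listed by function, and every non-control probe whose accession matched a listed symbol was taken, which gave 16 of the 61657 probes on the array and 10 of 15284 named genes. All 16 probes were well above background on all 6 arrays, 0 were saturated and 0 were flagged as non-uniform. RNA was measured in the livers of male Sprague-Dawley rats, bought at 5 weeks of age, with 1 one-colour array per sample. The vehicle group had 3 samples, and the other 3 came from rats dosed with nitrilotriacetic acid trisodium monohydrate (NTA, a synthetic chelator of metal ions) at 1000 mg/kg/day. The labels give the vehicle as purified water in one field and corn oil in another, and the duration as 28 days in one and 9 weeks in another. The treatment protocol speaks of 3 animals per group, so each array was taken as 1 rat.

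Superoxide leaks from the mitochondrial respiratory chain and from oxidases, and dismutases turn it into hydrogen peroxide. Catalase, held in peroxisomes, then breaks hydrogen peroxide down to water and oxygen, while glutathione peroxidases and peroxiredoxins reduce it with electrons from glutathione or thioredoxin. Liver is among the tissues richest in these enzymes, and in hepatocytes they also deal with the peroxide made by peroxisomal oxidases.

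None of the 10 transcripts passed the test for a difference between NTA and vehicle. Each value is the log2 of the processed signal over the 75th percentile of its array, so that a value of 1 is a signal 2-fold that percentile. Errors beside group means are SDs over the 3 rats of a group. In limma, fitted over 30353 features (named genes and unnamed probes) with Benjamini-Hochberg adjustment, the adjusted p of the 10 genes lay between 0.665 and 0.998, and 0 of the 10 had an unadjusted p under 0.05. Over all features, 0.0297% passed at an adjusted p under 0.05 and 7.57% had an unadjusted p under 0.05. The differences, NTA minus vehicle, ran from a log2 of −0.45 for Gpx1 to 0.15 for Txn1. Of the 10 genes, 7 lay below 0, beside 56.1% of all features, and their median was −0.07 against −0.03 for all features. That median was −0.02 with normexp background correction (−0.05 for all features), −0.04 with quantile normalization (−0.01 for all features), −0.01 without NTA replicate 3 and between −0.12 and −0.08 without any other rat. Each of the 10 intervals at 95% confidence lay inside a 2-fold change in either direction, with −0.90 the lowest bound and 0.59 the highest, and 7 of them lay inside a 1.5-fold change. These intervals are for single genes and rest on the moderated spread of 3 rats per group. When 1 rat was left out, the interval of Gpx1 reached past 2-fold in 4 of the 6 cases, with −1.07 as its lowest bound, and the others stayed inside.

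**Figure D1:**
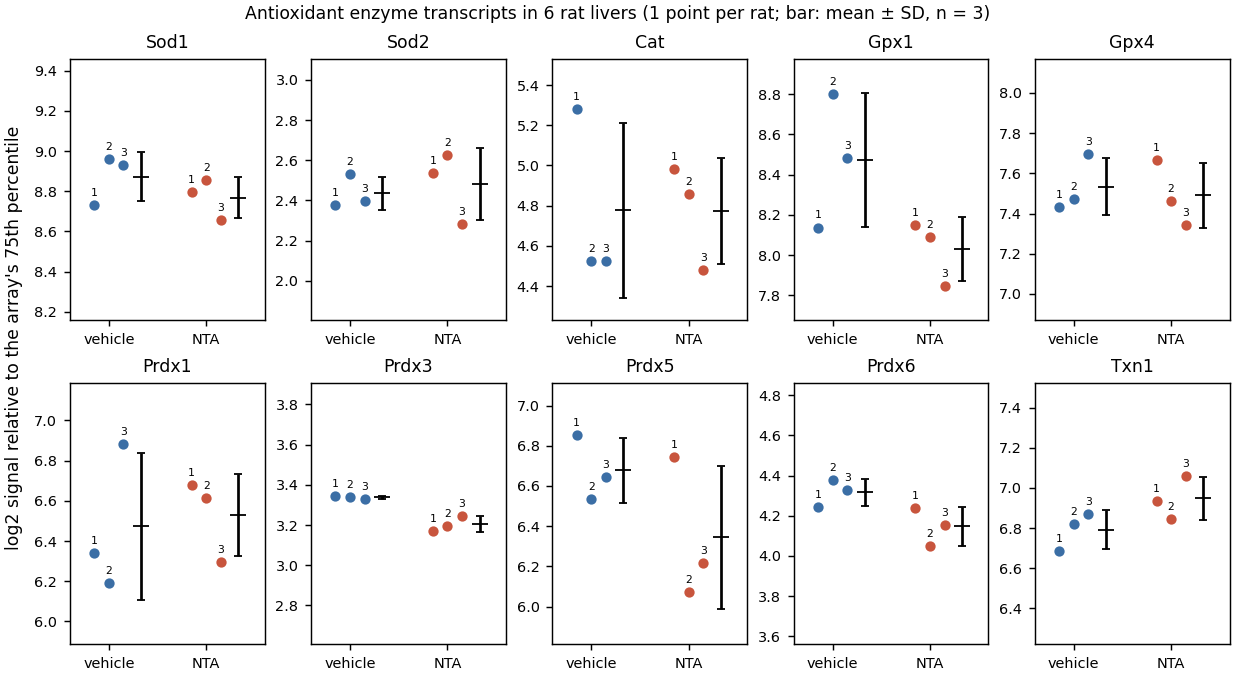
Each panel plots 1 gene, with the log2 signal over the 75th percentile of its array on the y axis (a span of equal length in every panel), 1 point per rat numbered by replicate, and the group mean ± SD beside it. Only Prdx3 and Prdx6 have all 3 NTA rats below all 3 vehicle rats, while single vehicle rats stand high for Cat (5.28) and Prdx1 (6.88).

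The start-site regions of 3 of the genes are shown, for Prdx1 and Sod2 because each holds the core of the antioxidant response element, the site at which NRF2 binds, and for Gpx1 because its difference was the largest. They are the 250 bases before the annotated start, from RefSeq on build GRCr8, 5′ to 3′ on the strand of the gene, with the element's core TGACNNNGC (found on either strand) in capitals.
Prdx1, chr5:135383656-135383905, + strand: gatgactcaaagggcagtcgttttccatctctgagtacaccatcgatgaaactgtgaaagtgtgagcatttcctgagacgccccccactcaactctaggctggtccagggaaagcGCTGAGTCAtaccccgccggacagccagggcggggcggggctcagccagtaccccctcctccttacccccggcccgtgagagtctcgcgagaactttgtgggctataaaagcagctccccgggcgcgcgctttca
Sod2, chr1:50050169-50050418, − strand: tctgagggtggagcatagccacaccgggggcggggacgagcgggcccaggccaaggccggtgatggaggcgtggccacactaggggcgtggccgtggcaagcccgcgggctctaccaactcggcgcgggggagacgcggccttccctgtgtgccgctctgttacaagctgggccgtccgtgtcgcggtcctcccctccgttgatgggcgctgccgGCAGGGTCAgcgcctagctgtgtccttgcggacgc
Gpx1, chr8:117905212-117905461, + strand: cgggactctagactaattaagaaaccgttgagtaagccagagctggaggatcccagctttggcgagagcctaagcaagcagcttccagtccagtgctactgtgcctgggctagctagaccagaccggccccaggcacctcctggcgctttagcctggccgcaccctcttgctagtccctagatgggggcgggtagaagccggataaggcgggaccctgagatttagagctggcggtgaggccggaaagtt
The core lies on the opposite strand in both, beginning 135 bases before the start of Prdx1 as GCTGAGTCA and 35 bases before the start of Sod2 as GCAGGGTCA. Of the 9 genes found in the promoter table (Prdx6 was not among them), these 2 hold it, and so do 10.1% of all 33469 windows of that length. The 9 genes have 11 windows, and a gene was counted if any of its windows matched. The shares over all are per window, so the units differ. The core of the metal response element, searched on both strands as TGCACNC and TGCGCNC, was in 0 of the 9 genes and in 20.6% of all windows. A GC box (GGGCGG on either strand) was in 8 of the 9, all but Cat, and in 30.5% of all windows. These matches describe letters only. The log2 differences of Prdx1 and Sod2 were 0.06 and 0.04. Those of the genes without the core in these 250 bases were 0.15 (Txn1), 0.00 (Cat), −0.04 (Gpx4), −0.10 (Sod1), −0.13 (Prdx3), −0.33 (Prdx5) and −0.45 (Gpx1). Sequence further from the start was not searched. A part of the element in these values was not tested.

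The superoxide dismutases were nearly level between the groups. Sod1, the copper and zinc enzyme of the cytosol, was at 8.73, 8.96 and 8.93 in vehicle rats 1 to 3 and at 8.79, 8.86 and 8.66 in NTA rats 1 to 3. The groups overlap, with NTA rat 3 lowest and vehicle rat 2 highest. Its log2 difference was −0.10 (SE 0.12; limma, Benjamini-Hochberg adjusted p = 0.864), with an interval of −0.38 to 0.17. The other probes of Sod1 gave log2 differences of −0.03 and −0.06. For Sod2, the manganese enzyme of the mitochondrial matrix, the values were 2.38, 2.53 and 2.40 with vehicle and 2.54, 2.62 and 2.28 with NTA. Here NTA rats held both the lowest and the highest value, and the log2 difference was 0.04 (SE 0.13; limma, Benjamini-Hochberg adjusted p = 0.956; interval −0.26 to 0.35). A second probe of Sod2 gave −0.04, so its probes differ in sign around 0.

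Catalase had the widest spread among vehicle rats of the 10 genes. Cat was at 5.28, 4.52 and 4.53 with vehicle and at 4.98, 4.86 and 4.48 with NTA. Vehicle rat 1 lay above the 5 other rats and NTA rat 3 below them. The group means were 4.78 ± 0.44 and 4.77 ± 0.26, with a log2 difference of 0.00 (SE 0.25; limma, Benjamini-Hochberg adjusted p = 0.998; interval −0.60 to 0.59). Without vehicle replicate 1 the difference was 0.25, and without vehicle replicate 2 it was −0.13, neither past the threshold (limma, Benjamini-Hochberg adjusted p between 0.726 and 0.990 over the 6 leave-outs). The sign of the Cat difference therefore turns on which rat is included.

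Gpx1, the cytosolic selenium-dependent glutathione peroxidase and the main one in hepatocytes, had the largest difference of the 10. It was at 8.14, 8.80 and 8.48 with vehicle and at 8.15, 8.09 and 7.85 with NTA. Vehicle rats 2 and 3 lay above all NTA rats, but vehicle rat 1 lay within the NTA range, just below NTA rat 1. With normexp and with quantile normalization the groups did not overlap, as for 18.6% and 13.5% of all features under those settings. The means were 8.47 ± 0.33 and 8.03 ± 0.16, a signal with NTA of 73.4% of vehicle (log2 −0.45, SE 0.19; limma, Benjamini-Hochberg adjusted p = 0.665; unadjusted p = 0.054; interval −0.90 to 0.01). Its second probe placed the rats much alike, with vehicle rats 2 and 3 again on top, and gave −0.44. The Gpx1 difference was −0.61 without vehicle replicate 1 and −0.28 without vehicle replicate 2, while over the 6 leave-outs the Benjamini-Hochberg adjusted p in limma lay from 0.508 to 0.836. With normexp background correction it was −0.56 (limma, Benjamini-Hochberg adjusted p = 0.433). The unadjusted p of Gpx1 in limma was under 0.05 in 4 of 17 alternatives.

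The profile of Gpx1 over the 6 rats, each gene centred on its own mean, was compared with those of 10834 named genes above background on all arrays. The smallest root mean square differences were 0.082 for Lifr, the receptor of leukaemia inhibitory factor, 0.090 for Mfsd4b2 and 0.117 for Gne, an enzyme of sialic acid synthesis, where Gpx1 itself varied by 0.309 on the same measure. This likeness over 6 arrays is a description. Their log2 differences were −0.43, −0.37 and −0.32.

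Gpx4, the glutathione peroxidase that reduces lipid peroxides in membranes, was nearly level. Its values were 7.43, 7.47 and 7.70 with vehicle and 7.66, 7.46 and 7.34 with NTA, and the groups overlap along nearly their whole range. The log2 difference was −0.04 (SE 0.13; limma, Benjamini-Hochberg adjusted p = 0.958; interval −0.36 to 0.28). The other probes of Gpx4 gave −0.05 for each. In a fit over all 38168 probes past the filter, 0 of the 16 probes passed limma's adjusted threshold, where 0.0341% of all probes did, and 2 of the 16 had groups without overlap, beside 13.4% of all probes.

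**Figure D2:**
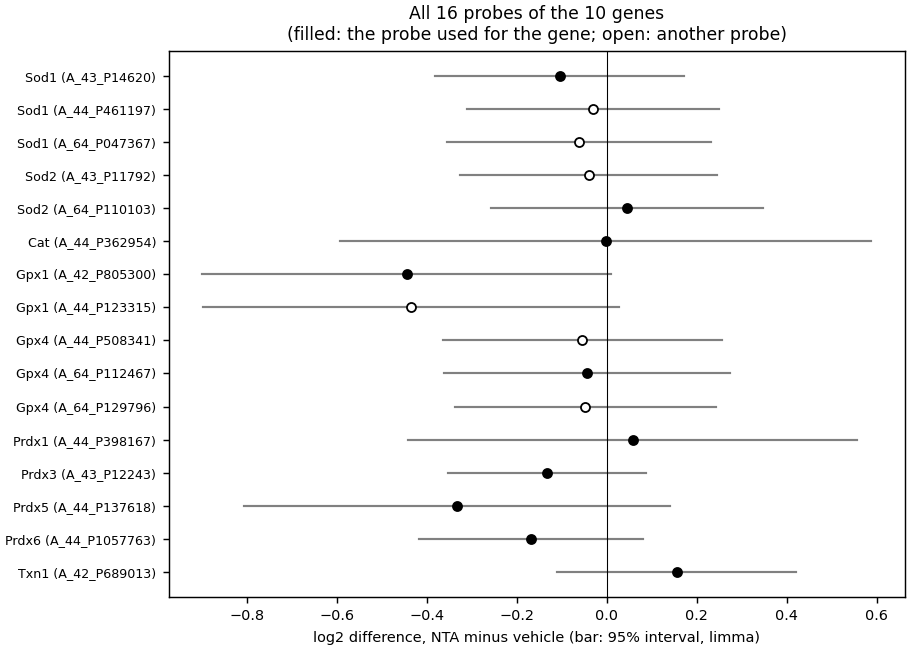
For each of the 16 probes the point marks the log2 difference, NTA minus vehicle, on the x axis, and the bar its 95% interval from limma (fitted over all probes past the filter), with the probe used for the gene filled. Of the 16 points 13 lie below 0, all 16 bars lie inside a 2-fold change, and both Gpx1 probes sit near −0.44.

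Among the peroxiredoxins, which use a reactive cysteine to reduce peroxides, Prdx3 and Prdx6 were the 2 of 10 genes whose groups did not overlap, both lower with NTA. Groups without overlap made up 13.6% of all features, and 8.03% were of this kind and lower. Prdx3, the mitochondrial matrix peroxiredoxin, was at 3.35, 3.34 and 3.33 with vehicle and at 3.17, 3.20 and 3.25 with NTA. The vehicle rats lay unusually close to each other, with an SD of 0.008, the smallest among the 10 genes, against 0.038 with NTA. The gap was small, a log2 difference of −0.13 (SE 0.09; limma, Benjamini-Hochberg adjusted p = 0.787; interval −0.36 to 0.09). With normexp background correction the sign turned, to 0.04, and the groups overlapped.

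Prdx6, the cytosolic peroxiredoxin that also has phospholipase activity, was at 4.25, 4.38 and 4.33 with vehicle and at 4.24, 4.05 and 4.15 with NTA. Vehicle rat 1 and NTA rat 1 all but meet, and with scaling to the array median the groups overlapped. The log2 difference was −0.17 (SE 0.10; limma, Benjamini-Hochberg adjusted p = 0.759; interval −0.42 to 0.08). It was below 0 in each of 17 alternatives, from −0.24 with normexp to −0.12 without NTA replicate 2. Several of these, such as the changed filters, left the value of −0.17 unchanged. Prdx5, found in mitochondria, peroxisomes and cytosol, was at 6.86, 6.53 and 6.64 with vehicle and at 6.75, 6.07 and 6.22 with NTA. NTA rats 2 and 3 lay below all vehicle rats, whereas NTA rat 1 lay among them. Its difference was the second in size, −0.33 (SE 0.20; limma, Benjamini-Hochberg adjusted p = 0.747; interval −0.81 to 0.14). Without NTA replicate 1 it was −0.53, and without NTA replicate 2 it was −0.20, with adjusted p of 0.754 and 0.908 (limma, Benjamini-Hochberg).

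Prdx1, the abundant cytosolic peroxiredoxin, was at 6.34, 6.19 and 6.88 with vehicle and at 6.68, 6.62 and 6.30 with NTA. Vehicle rats held both the lowest value and the highest. Its log2 difference was 0.06 (SE 0.21; limma, Benjamini-Hochberg adjusted p = 0.966; interval −0.44 to 0.56), which became 0.26 without vehicle replicate 3 and −0.08 without vehicle replicate 2. Only vehicle rat 3 was scanned on a second day, and there the median local background was lower, 40 against 54 to 61. Txn1, the thioredoxin that returns oxidised peroxiredoxins to their reduced form, was the one gene of the 10 above 0 by more than 0.1. It was at 6.69, 6.82 and 6.87 with vehicle and at 6.93, 6.85 and 7.06 with NTA, where only NTA rat 2 lay within the vehicle range. The groups of Txn1 did not overlap with normexp or with quantile normalization, as for 18.6% and 13.5% of all features under those settings. The log2 difference was 0.15 (SE 0.11; limma, Benjamini-Hochberg adjusted p = 0.797; interval −0.11 to 0.42), and it was above 0 in each of 17 alternatives, from 0.10 to 0.20. As for Prdx6, several of these left the value unchanged.

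**Figure D3:**
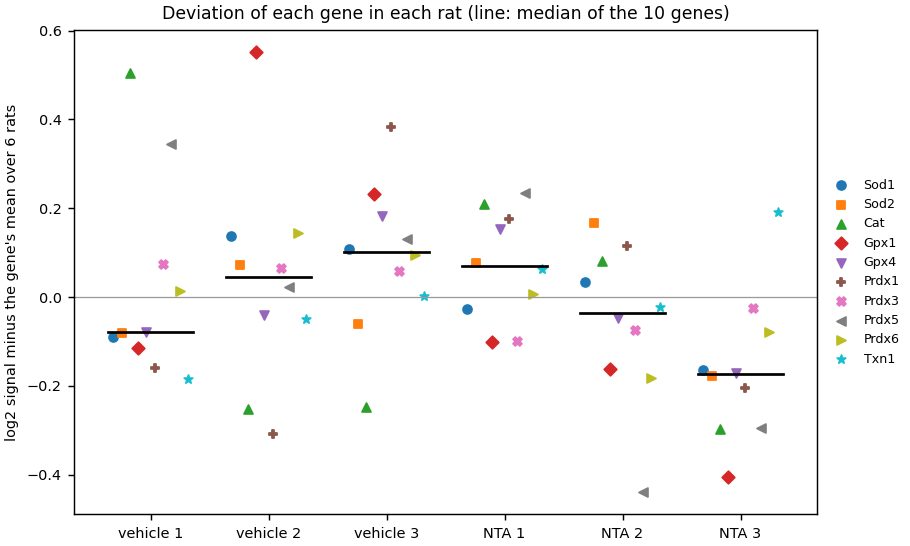
The y axis gives each gene's log2 signal minus its own mean over the 6 rats, with 1 symbol per gene and the median of the 10 genes as a line, for each rat along the x axis. NTA rat 3 has the lowest median (−0.17) and vehicle rat 3 the highest (0.10), beside −0.03 and 0.04 over all features in the same rats.

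No rat was lowest or highest for all 10 genes. NTA rat 3 held the lowest of the 6 values for 5 of the 10 genes, yet the highest for Txn1. Of the 10 genes, 1 lay above its own mean in that rat, against 8 in vehicle rat 3, 7 in NTA rat 1 and 4 in vehicle rat 1. Over all features the median deviation was also lowest in NTA rat 3 (−0.03) and highest in vehicle rat 3 (0.04). Whether the 10 genes moved together was not tested. Vehicle rats 1 and 2 each held the highest value for 3 genes, which were Cat, Prdx3 and Prdx5 in rat 1 and Sod1, Gpx1 and Prdx6 in rat 2. The spread within a group differed widely between genes, with an SD from 0.008 to 0.44 with vehicle and from 0.038 to 0.35 with NTA, and it was larger with NTA for 6 of the 10.

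**Figure D4:**
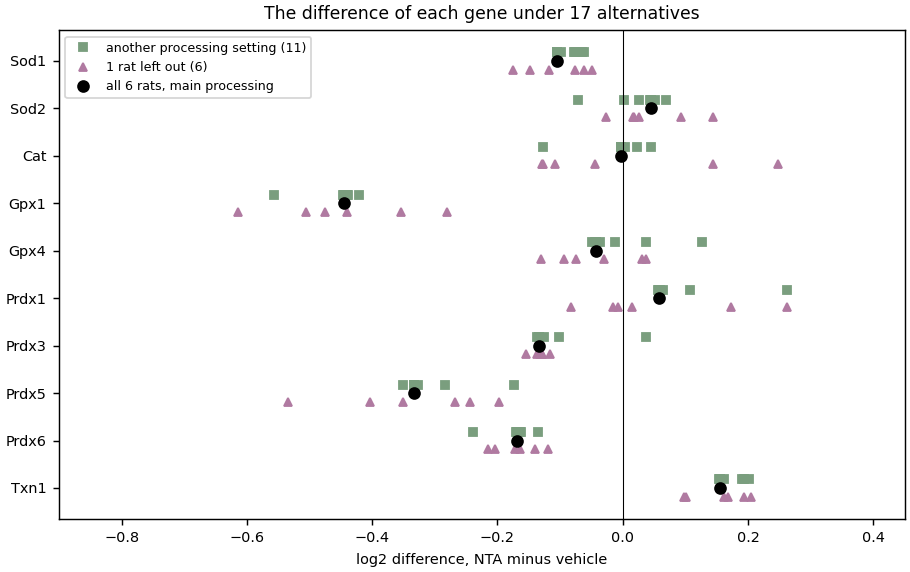
For each gene the x axis gives the log2 difference, NTA minus vehicle, with all rats and the main processing (circle), with 11 other processing settings (squares) and with 1 rat left out (6 triangles). Gpx1, Prdx5, Prdx6 and Sod1 stay below 0 and Txn1 stays above 0 throughout, while Sod2, Cat, Gpx4, Prdx1 and Prdx3 have values on both sides. Some of the settings leave the difference of a gene unchanged.

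Other enzymes of the same chemistry were read from lists set by function. Over all features 3.66% were higher and 3.91% lower at an unadjusted p under 0.05. Of 25 measured further enzymes for peroxides and thiols, 0 passed limma with Benjamini-Hochberg adjustment, 1 was higher and 0 lower at that unadjusted p, and the median log2 difference was 0.09. The 1 was Txnrd3, a thioredoxin reductase best known from testis, at −2.99 ± 0.06 in vehicle rats and −2.57 ± 0.07 in NTA rats. Its log2 difference was 0.42 ± 0.10 (SE; adjusted p = 0.506 in limma). With normexp it was 0.12, and the unadjusted p in limma was 0.183. Outside the naming rule, and chosen with their values in view, stand some close partners of the 10 genes. Srxn1, which repairs overoxidised peroxiredoxins, had a log2 difference of 0.41 (SE 0.19), and Txnrd1, the cytosolic reductase of Txn1, one of 0.26 (SE 0.25). The peroxiredoxins not among the 10, Prdx2 and Prdx4, had differences of 0.09 (SE 0.11) and −0.13 (SE 0.12). For Srxn1, Txnrd1, Prdx2 and Prdx4 the Benjamini-Hochberg adjusted p in limma lay from 0.691 to 0.884. Srxn1 had 1 other probe and Txnrd1 had 3, whose values are not reported here.

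Among 10 genes for glutathione and NADPH supply, 0 passed limma with Benjamini-Hochberg adjustment, 1 was higher and 0 lower at an unadjusted p under 0.05, and the median was 0.02. The 9 measured genes for making selenoproteins, the class to which Gpx1 and Gpx4 belong, had a median of −0.01, with 0 past limma's adjusted threshold and 0 at an unadjusted p under 0.05. Those with the smallest p were Trnau1ap and Sepsecs, both of the selenocysteine tRNA machinery, at −0.14 (SE 0.10) and −0.12 (SE 0.10). The 2 other probes of Trnau1ap gave −0.09 and 0.01, and the other probe of Sepsecs gave −0.003. Sepsecs was at −0.28 with normexp (unadjusted p = 0.0115 in limma) and −0.07 without vehicle replicate 3.

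On the side of peroxide production, 21 oxidases had a median of 0.02, with 0 past limma's adjusted threshold and, at an unadjusted p under 0.05, 0 higher and 2 lower. Both make hydrogen peroxide in hepatocyte peroxisomes. Uox, the urate oxidase, was at 5.17, 5.28 and 5.17 with vehicle and at 4.66, 4.72 and 4.99 with NTA, a log2 difference of −0.42 (SE 0.12; adjusted p = 0.541 in limma). Hao1, the glycolate oxidase, was at 3.51, 3.54 and 3.81 with vehicle and at 3.29, 3.33 and 3.26 with NTA, a log2 difference of −0.33 (SE 0.12; adjusted p = 0.615 in limma). In each of these the groups do not overlap, whereas Cat of the same organelle was at 0.00. Of 18 measured genes for building peroxisomes, 0 passed limma's adjusted threshold, 0 were higher and 1 was lower at an unadjusted p under 0.05, and the median was 0.04. That 1 was Pex26, a peroxisomal membrane anchor, at −0.34 (SE 0.12), while its other probe gave −0.13.

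Markers of liver cell types were read beside these genes. Of 12 hepatocyte markers 10 lay below 0, with a median of −0.13 (−0.06 with normexp and also with quantile normalization). Their summed signal relative to the 75th percentile was 6612 to 7047 with vehicle and 5852 to 6189 with NTA, without overlap. This linear sum is weighted to the brightest markers, such as Tf and Ttr, and was taken with the main processing only. Gene by gene, groups did not overlap for 3 of the 12 markers, all lower with NTA, beside 13.6% of all features and 8.03% lower. Ahsg, which encodes the plasma protein fetuin-A, had the smallest p of them, at −0.37 (SE 0.15; limma, Benjamini-Hochberg adjusted p = 0.647), and at −0.22 with normexp and −0.23 without NTA replicate 3. All 12 passed the filter on dim probes, as the liver label would have it, and 0 passed the adjusted threshold. Because each sample is bulk liver, fewer cells of a type and less RNA per cell cannot be told apart. Red blood cells are rich in Cat, Gpx1, Sod1 and Prdx2 protein, and 8 of 10 measured erythroid markers lay above 0 (median 0.50). Their sums were 578.7 to 640.6 with vehicle and 710.1 to 1120 with NTA. These linear sums are nearly all Hba-a1 and Hbb, at 8.56 and 7.88 in the mean of vehicle rats. Alas2, the next brightest, was at 0.45, so the sums say little of the other markers. Rhd, Alas2, Hba-a1 and Hbb were at 1.00, 1.17, 0.54 and 0.47, each without overlap, and their adjusted p in limma ran from 0.262 to 0.608. Rhd was at 0.59 with normexp, and Hbb was at 0.31 without NTA replicate 2. In this list 0 genes passed limma's adjusted threshold and 4 were higher at an unadjusted p under 0.05. Of the 14 markers listed, 2 had no probe matched, Hba-a2 among them, and 2 did not pass the filter on dim probes, Gata1 among them.

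Of the remaining cell types, all 9 measured sinusoidal endothelium markers lay above 0 (median 0.36; sums of 65.33 to 78.2 with vehicle and 85.07 to 92.76 with NTA). Cdh5 and Tek among them were nearly level, at 0.007 and 0.03. Those named by the rule were Tie1 at 0.63, Lyve1 at 0.54 (0.32 with normexp, unadjusted p = 0.0546 in limma), Emcn at 0.78 and Fcgr2b at 0.52. All 12 measured Kupffer cell and macrophage markers lay above 0 (median 0.36; sums of 139.9 to 282.8 and 199.7 to 392.5), with Trem2 at 0.98 and Marco at 1.27. Trem2 was at 0.21 with normexp (unadjusted p = 0.138 in limma), and Marco was at 0.81 both with scan day as a block and without vehicle replicate 3 (unadjusted p = 0.0904 in limma). The median of the list was 0.07 without vehicle replicate 3, 0.10 without NTA replicate 3, and 0.59 and 0.62 without vehicle replicate 1 or NTA replicate 2. Of the 6 measured lymphocyte markers 5 lay above 0 and 1 below, with Cd3d at 0.05, Cd3g at 0.17 and Cd8a at −0.36. Lymphocyte markers had a median of 0.23 over 6 genes, with Cd79b at 0.74 (0.44 with normexp) and sums of 2.26 to 3.12 with vehicle and 2.76 to 3.63 with NTA. Their median was 0.07 without vehicle replicate 3, 0.02 without NTA replicate 3, 0.39 without vehicle replicate 2 and 0.48 without NTA replicate 2. Biliary markers had a median of 0.05 over 7 genes (from −0.15 without NTA replicate 3 to 0.30 without vehicle replicate 3), with 4 above 0 and 3 below. Stellate and fibroblast markers had one of 0.00 over 8, with 4 above 0 and 4 below. The rule named Cldn4 and Krt7, at −0.25 each, of the first and Lrat and Reln, at 0.41 and 0.23, of the second. Without NTA replicate 2, Lrat was at 0.19 and Reln at 0.06. In these lists 0 genes passed limma's adjusted threshold, and 5 endothelial, 2 macrophage, 2 lymphocyte, 0 biliary and 0 stellate genes were higher at an unadjusted p under 0.05. The part of these cell types in the values of the 10 enzymes was not tested.

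**Figure D5:**
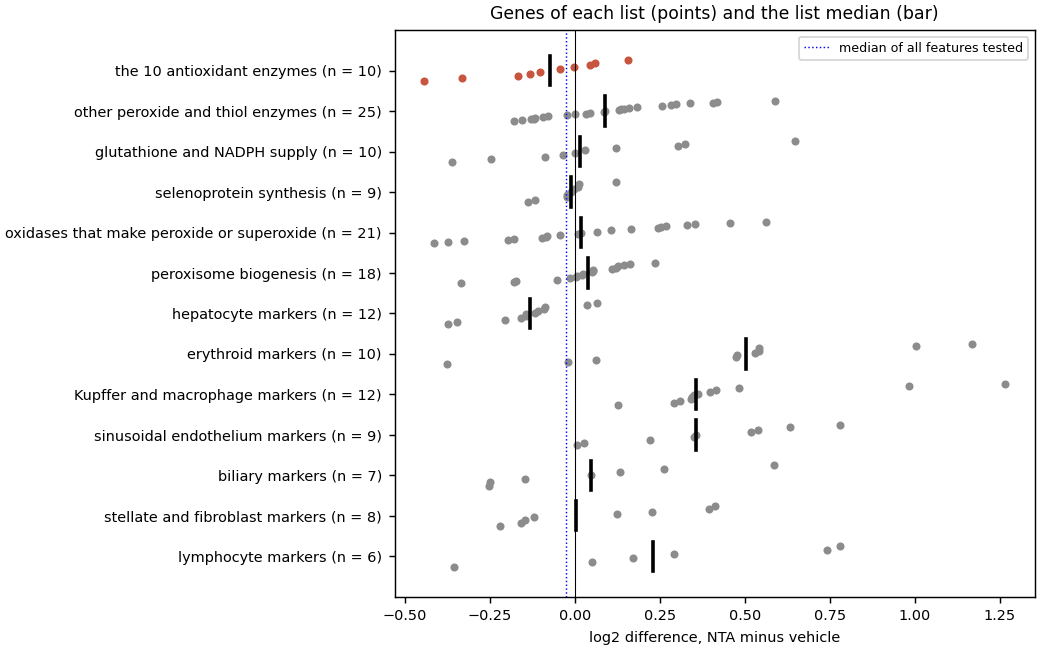
Each point is a gene's log2 difference, NTA minus vehicle, on the x axis, in rows by list, with a bar at the list's median and a dotted line at the median of all features (−0.03). The 10 antioxidant enzymes lie between −0.45 and 0.15, while the medians of the erythroid, macrophage and endothelial lists lie at 0.50, 0.36 and 0.36.

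The NTA arrays lay together on a slide of their own, so that an effect of the slide and one of NTA cannot be told apart. Vehicle rats 1 and 2 shared another slide, and vehicle rat 3 lay on one apart. With slide as a random block (block correlation −0.006) the Gpx1 difference was −0.45 and 0 of the 10 genes passed limma's adjusted threshold. That fit cannot separate slide from NTA, because no slide held both groups.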

How the data were processed

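Scanned Agilent arrays of design 035170 (build rn4) were quantified by the authors with Feature Extraction 10.7.1.1, per the file headers, and 10.7, per the submitters' processing notes. The processed signal is a background-subtracted intensity, per the file headers. The series table deposited by the authors was found to be a ratio on a linear scale, that intensity over the array's 75th percentile, with 100% of values matching within 0.0001 plus 0.2%. Its column medians were 0.096 to 0.1.

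Values were log2 intensity minus log2 of the array's 75th percentile over 61657 non-control probes (75th percentiles of 464 to 558, and 62.4% to 64.5% of probes well above background). Spots flagged non-uniform, 1 to 14 per array, were set to missing. Probes were named by unversioned accession through RefSeq's table of GRCr8 (27460 probes named, 34197 unnamed), and kept if well above background on all 3 arrays of either group. The brightest probe stood for a gene. Groups were compared with lmFit and eBayes of limma 3.58.1 under R 4.3.3 (4 residual and 2.54 prior degrees of freedom), two-sided, with Benjamini-Hochberg adjustment over 30353 features. A fit over 38168 probes gave the values of each probe. The smallest p of an exact permutation test of 3 against 3 is 0.1, so none was run. The number of arrays limits the precision.

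In 5 simulated datasets of 30346 features for this comparison, 56.4% of 100 features changed 2-fold and 91.4% of 100 changed 4-fold were called, 6.22% of calls were false, and 95.5% of intervals held the true value. The noise was normal, independent between features and equal in both groups, with the moderated spread from limma. No slide effect was included, and the number of changed features was set in advance. These rates therefore hold under the assumptions of the model and may differ in the data.

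The genes, lists and tests were chosen with earlier results of these data known. The naming rule took all 10 genes and, per list, those past the threshold and up to 4 with the smallest unadjusted p under 0.05, or else the 2 smallest. Some genes that this rule takes are counted in their lists but not reported here by name. Of 180 list entries 163 had a probe. The median spot and background intensities, deposited by the authors, served for normexp (offset 50).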

Additional observations from a re-analysis of the deposited data

How the results depend on the processing

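In 11 processing settings and 6 leave-outs, 0 of the 10 genes passed limma's adjusted threshold. At an unadjusted p under 0.05 there were 2 with normexp (Gpx1 and Prdx6), 1 with quantile normalization, with trend and robust, without vehicle replicate 1 and without NTA replicate 1, and 0 otherwise. Of all features 10.8%, 7.68%, 7.36%, 8.45% and 6.07% had such a p under these 5 settings, in that order. Of 170 values for the 10 genes, 155 kept their sign and 15 did not, and all 408 values of the other named genes kept theirs. These counts are not independent support, since several settings could not alter a difference. For the 10 genes, both changed filters and the trend and robust fit left it as it was. The authors' values matched the main ones, and scan day as a block amounts to leaving out vehicle replicate 3. The other named genes were taken for the smallest p of their lists. With normexp background correction Sod2 was at −0.071, Cat at 0.023, Gpx4 at 0.13 and Prdx3 at 0.036. Cat was at 0.046 with quantile normalization and 0.0037 with array median scaling, and Gpx4 was at 0.038 with scan day as a block. The genes that turned sign when 1 rat was left out ran from −0.13 to 0.25 (Cat), −0.13 to 0.038 (Gpx4), −0.083 to 0.26 (Prdx1) and −0.027 to 0.14 (Sod2). The cause was not tested. Groups did not overlap for 4 of the 10 genes with quantile normalization, 3 with normexp and 1 with array median scaling, beside 13.5%, 18.6% and 13.1% of all features under the same settings. Over all features limma called 9, between 1 (without NTA replicate 2) and 8 when 1 rat was left out, and 4 without NTA replicate 1.

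With the labels' replicate number as a block, limma called 0 of 30353 features, 2321 had an unadjusted p under 0.05, and 0 of the 10 genes passed. Same-numbered rats did not deviate together (r = 0.174, −0.006 and −0.075 across features), so the numbers were not taken as pairs. The normexp setting used the median spot signal in place of the mean.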
